A study of Mus musculus with 40 samples.

Results

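Cfd, Retn, Adipoq, Plin1 and Lep are 5 genes known mainly from fat cells, and their RNA was counted in mouse liver. They are 5 of the 40594 genes present in both deposited count tables, found by symbol, and they were chosen by their values over the 8 groups described here, so their levels are given as a description with no test. The 40 livers came from male mice aged 5 months, all labelled C57BL6/J, 5 per group, and all were sequenced as poly-A RNA. WT mice were bought as C57BL6/J and are not stated to carry a loxP allele or Cre. KO mice carried loxP sites in Pparg and Cre under the albumin promoter (Alb-Cre), which acts in hepatocytes, so the other cells of a KO liver keep the gene. Each genotype had 4 groups. The control groups ate a low-fat control diet, the Pio groups the control diet with pioglitazone, the HFD groups a high-fat diet, and the HFD-Pio groups the high-fat diet with pioglitazone. The counts of WT and KO mice are in separate tables. Genotype therefore cannot be told apart from table, and no level was tested between WT and KO mice.

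Pioglitazone (Pio) is a thiazolidinedione drug that activates PPARγ, a nuclear receptor that works as a heterodimer with RXR and drives fat cell formation. Its usual DNA site is a direct repeat of a short half-site with 1 base between the copies (DR1). Cfd encodes adipsin, also called complement factor D, the serine protease that cleaves factor B in the alternative complement pathway. Retn encodes resistin, a cysteine-rich peptide secreted by mouse fat cells. Adipoq encodes adiponectin and Lep encodes leptin, hormones of fat cells, and Plin1 encodes perilipin 1, the coat protein of the lipid droplets of fat cells. Liver tissue can carry a little attached fat, and Adipoq, Plin1 and Lep are commonly read as its markers.

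The 5 genes lie on 5 chromosomes of GRCm38 and none of them is overlapped by another annotated gene (GENCODE M21). Cfd (ENSMUSG00000061780) is on the plus strand of chromosome 10 from 79890853 to 79892655, and Retn (ENSMUSG00000012705) on the plus strand of chromosome 8 from 3655770 to 3660110. Adipoq (ENSMUSG00000022878) is on the plus strand of chromosome 16 from 23146536 to 23158028. Plin1 (ENSMUSG00000030546) is on the minus strand of chromosome 7 from 79720218 to 79732903, and Lep (ENSMUSG00000059201) on the plus strand of chromosome 6 from 29060220 to 29073877. The 250 bases before the RefSeq start site (build GRCm38.p6, all plus strand) are shown for Cfd and Retn, whose levels were high in WT mice given Pio, and for Adipoq, whose level was not. Capitals mark matches to the motifs searched, and everything else is in lower case.
Cfd, chr10:79890603-79890852: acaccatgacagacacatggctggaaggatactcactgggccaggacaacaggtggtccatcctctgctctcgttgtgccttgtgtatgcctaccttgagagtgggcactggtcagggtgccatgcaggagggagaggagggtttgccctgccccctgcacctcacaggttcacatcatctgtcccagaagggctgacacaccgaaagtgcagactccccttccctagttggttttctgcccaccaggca
Retn, chr8:3655520-3655769: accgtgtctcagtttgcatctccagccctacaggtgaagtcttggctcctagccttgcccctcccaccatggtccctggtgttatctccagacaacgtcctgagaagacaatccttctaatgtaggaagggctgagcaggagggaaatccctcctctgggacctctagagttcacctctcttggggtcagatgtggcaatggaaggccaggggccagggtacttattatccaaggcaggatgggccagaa
Adipoq, chr16:23146286-23146535: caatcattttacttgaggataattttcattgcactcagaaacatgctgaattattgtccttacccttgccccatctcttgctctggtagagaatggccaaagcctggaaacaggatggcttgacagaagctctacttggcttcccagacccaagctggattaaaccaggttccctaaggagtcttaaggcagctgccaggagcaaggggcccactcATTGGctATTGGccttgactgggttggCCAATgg
The motifs were the half-site AGGTCA, the DR1 repeat AGGTCANAGGTCA with up to 2 mismatches, TATAAA and CCAAT, each on both strands. In Cfd and Retn none of the 4 was found, and in Adipoq CCAAT occurred 3 times, at bases -34 to -30 and -27 to -23 on the minus strand and at -7 to -3 on the plus strand. Those 3 matches did not overlap each other. Plin1 and Lep also had no match. Of 32851 such windows in the promoter table, 14.0% held AGGTCA, 3.24% the DR1 repeat, 12.4% TATAAA and 33.8% CCAAT. The absence of a match says only that these letters are not in these windows.

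The 40 libraries held 15788242 to 49857017 counts in WT mice and 21542958 to 28334251 in KO mice. Values are CPM, the usual count scaled to its library total, here after TMM adjustment, and group values are means ± SD (n = 5 mice). Of 12942 genes that reached 1 CPM in at least 5 mice, Cfd and Retn were 2 members; Adipoq, Plin1 and Lep did not reach this level, with 0, 1 and 0 mice at 1 CPM or above. Markers of hepatocytes (9 genes) summed to 78430 to 153113 CPM in all livers but 1. The exception was KO Pio mouse 13, at 35542 CPM. KO Pio mouse 13 and KO HFD mouse 10 also had 149 and 770 CPM of 9 pancreatic acinar markers, against 1.72 to 28.5 CPM in the other 38 mice, and KO HFD mouse 9 had 548 CPM of 8 neutrophil and bone marrow markers. The 7 skeletal muscle markers summed to 18.3 CPM in KO HFD mouse 10 and to at most 1.15 CPM elsewhere. Red blood cell markers ran from 302 to 2029 CPM in WT and from 147 to 511 CPM in KO mice, and macrophage markers from 111 to 587 CPM over all mice. In bulk liver, fewer cells of a type and less RNA per cell cannot be told apart. Pparg had 8.59 ± 2.05 CPM in WT control and 7.36 ± 2.44 CPM in KO control mice. Counts per gene do not show the deleted exons, so this level does not check the deletion.

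Cfd was higher in each of the 10 WT livers exposed to Pio than in any other liver. WT control mice 831 to 835 had 1.35, 0.447, 1.21, 1.80 and 3.82 CPM. WT Pio mice 841 to 845 had 402, 271, 40.5, 232 and 91.9 CPM. The 2 groups did not overlap, and the means were 208 ± 145 and 1.73 ± 1.27 CPM, a ratio of 120.2 (fitted log2 difference 6.88, standard error 0.87). On HFD the 5 WT mice without Pio, 826 to 830, had 6.28, 37.8, 5.09, 3.09 and 3.60 CPM. With Pio, WT HFD-Pio mice 836 to 840 had 370, 471, 83.8, 235 and 256 CPM. The groups again did not overlap, with means of 283 ± 146 and 11.2 ± 14.9 CPM and a ratio of 25.3 (fitted log2 difference 4.67, standard error 0.77). Within the WT Pio group the highest mouse had 9.94 times the level of the lowest, and within the WT HFD-Pio group 5.62 times.

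Retn followed the same division at a far lower level. WT control mice 831 to 835 had 1, 1, 1, 2 and 1 raw counts, and WT Pio mice 841 to 845 had 100, 131, 61, 78 and 42 counts. In CPM the WT Pio mice had 2.58, 4.76, 2.67, 3.18 and 2.33. No mouse of one group reached the other, the means being 3.10 ± 0.979 and 0.0449 ± 0.0122 CPM (ratio 69.1, fitted log2 difference 5.98, standard error 0.74). On HFD, mice 826 to 830 had 0, 3, 2, 1 and 1 counts without Pio, and mice 836 to 840 had 70, 70, 3, 18 and 16 counts with it. The means were 0.0849 ± 0.0712 and 1.07 ± 0.759 CPM (ratio 12.6, fitted log2 difference 3.73, standard error 0.75). These groups did not overlap in CPM, but only narrowly: WT HFD-Pio mouse 838 had 0.191 CPM and WT HFD mouse 827 had 0.178 CPM, each from 3 counts. Retn spanned 2.05-fold among WT Pio mice, less than Cfd did, and 11.4-fold among WT HFD-Pio mice, more than Cfd.

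**Figure D1:**
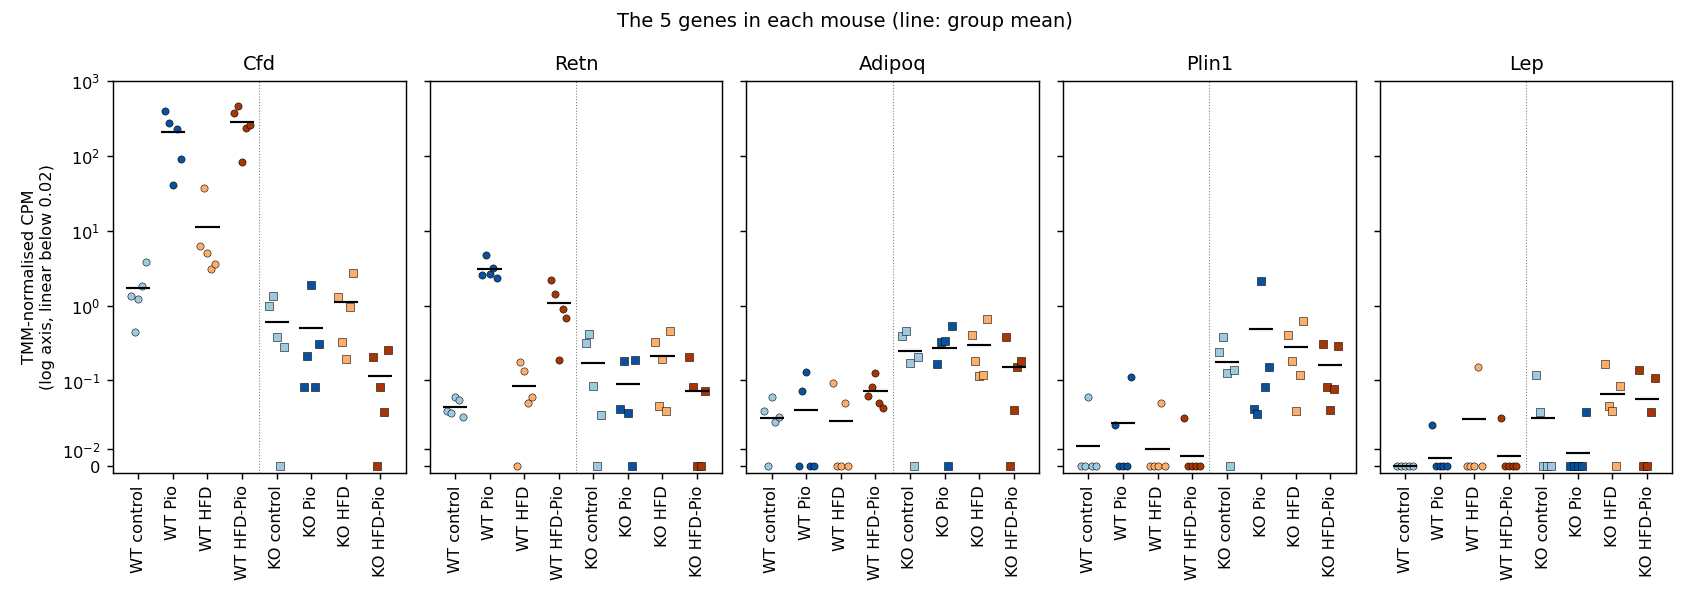
TMM-normalised CPM of the 5 genes in each of 40 mice, by group (log axis, linear below 0.02 CPM); circles are WT and squares KO mice, and lines are group means. Cfd and Retn are high in the WT Pio and WT HFD-Pio groups (means 208 and 283 CPM for Cfd, 3.10 and 1.07 CPM for Retn), while Adipoq, Plin1 and Lep are at most 0.152 CPM in any WT mouse.

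Adipoq, Plin1 and Lep stayed near zero in the same WT livers. Adipoq had 1, 0, 1, 1 and 1 counts in the WT control mice and 0, 2, 3, 0 and 0 counts in the WT Pio mice. On HFD it had 2, 0, 0, 1 and 0 counts without Pio and 2, 4, 2, 1 and 1 counts with it. The WT groups overlapped throughout for Adipoq. Plin1 had 0 counts in 4 of 5 WT control, 3 of 5 WT Pio, 4 of 5 WT HFD and 4 of 5 WT HFD-Pio mice, and its highest count was 2. Lep had no count in the WT control mice, which by the floor of 3 counts allows up to 0.0227 CPM for the summed libraries of the group, and 1, 3 and 1 counts in all over the WT Pio, WT HFD and WT HFD-Pio mice. The 3 Lep counts of the HFD group came from mouse 829 alone. Summed over the 10 WT mice given Pio, Cfd had 78497 counts and Retn 589, beside 15 for Adipoq, 4 for Plin1 and 2 for Lep. The 10 WT mice without Pio had 1218, 13, 7, 2 and 3 counts in the same order. There were thus 5233 Cfd counts for each Adipoq count in the mice given Pio and 174 in those without.

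Of the 5 members, 2 did not overlap between the WT Pio and WT control mice. Over all 12942 tested genes, 3.91% were called in that comparison and 2.44% were called and rose with Pio. On HFD the same 2 members did not overlap, where 1.08% of tested genes were called and 0.603% called as higher. Since these contrasts were used to choose the members, nothing is read from their counts against those shares. The shares are also of edgeR calls and not of genes whose groups did not overlap, which is a different measure. Retn reached 1 CPM in only 7 mice, all of them WT mice given Pio, and passed the filter through these alone.

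Without Pio, Retn differed by 0.78 on the log2 scale between WT HFD and WT control mice (standard error 1.09), and the groups overlapped. Cfd was 11.2 CPM in WT HFD and 1.73 CPM in WT control mice (fitted log2 difference 2.67, standard error 0.75), and the groups overlapped. Mouse 827 held most of this: without it the log2 ratio of the group means was 1.39 in place of 2.70. The same mouse had the highest Fabp4 of its group, 37.0 CPM against 3.24 to 9.51 in the others, and no count of Adipoq, Plin1 or Lep. With Pio on both diets, Cfd differed by 0.45 on the log2 scale (standard error 0.66, WT HFD-Pio minus WT Pio). Retn was lower in all WT HFD-Pio than in all WT Pio mice, by a fitted log2 difference of -1.48 (standard error 0.51). Called genes made up 1.31% of those tested for HFD without Pio and 1.22% for HFD with Pio in WT mice.

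In KO livers Cfd was at most 2.76 CPM in a mouse, against 40.5 CPM or more in WT mice given Pio. Retn was at most 0.461 CPM in a KO mouse, below all WT Pio mice but above WT HFD-Pio mouse 838. For Cfd, KO control mice 1 to 5 had 25, 35, 9, 0 and 8 counts, and KO Pio mice 11 to 15 had 2, 6, 50, 2 and 8. KO HFD mice 6 to 10 had 32, 7, 5, 24 and 66 Cfd counts, and KO HFD-Pio mice 16 to 20 had 6, 0, 2, 1 and 7. The means were 0.597 ± 0.548, 0.509 ± 0.761, 1.11 ± 1.03 and 0.116 ± 0.109 CPM in the KO control, KO Pio, KO HFD and KO HFD-Pio groups, and neighbouring groups in the order of means overlapped. The fitted log2 difference with Pio was -0.22 (standard error 0.93) on control diet and -3.16 (1.10) on HFD. Without KO Pio mouse 13 the log2 ratio of the Cfd means on control diet was -1.80. Retn had 22, 12, 26 and 10 counts in all in the 4 KO groups in that order, with 0 to 11 in a mouse, and log2 differences with Pio of -0.89 (standard error 0.80) and -1.46 (0.80). Of the genes tested, 9.01% were called for Pio on control diet in KO mice, 0.0155% for Pio on HFD, 0.185% for HFD without Pio and 4.96% for HFD with Pio.

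Adipoq, Plin1 and Lep had more counts in the KO table than in the WT table. Over 20 KO mice Adipoq had 125 counts, or 0.253 CPM of the summed libraries without TMM scaling (exact 95% Poisson interval 0.210 to 0.301), against 22 counts, or 0.0430 CPM (0.0270 to 0.0651), over 20 WT mice. For Plin1 these were 144 counts, 0.291 CPM (0.246 to 0.343), against 6 counts, 0.0117 CPM (0.00431 to 0.0255). Lep had 21 counts, 0.0425 CPM (0.0263 to 0.0649), against 5 counts, 0.00978 CPM (0.00317 to 0.0228). The intervals cover counting error only, not the spread between mice. KO Pio mouse 13 alone gave 58 of the 144 Plin1 counts, and the other 19 KO mice had 0 to 15. In Adipoq, KO control mice had 10, 12, 4, 0 and 6 counts, KO Pio mice 4, 9, 9, 0 and 14, KO HFD mice 10, 4, 3, 3 and 16, and KO HFD-Pio mice 11, 0, 1, 4 and 5. The KO groups overlapped for each of these 3 genes, and no fitted difference with Pio is given for them because they lay under the filter.

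Within the KO livers higher counts of the members often fell in the same mice, though not always: KO HFD-Pio mouse 16 had 24 counts of Adipoq, Plin1 and Lep beside 6 of Cfd, and KO HFD mouse 9 had 6 beside 24. The sum of Adipoq, Plin1 and Lep was 67 counts in KO Pio mouse 13, 33 in KO HFD mouse 10, 24 in KO HFD mouse 6 and in KO HFD-Pio mouse 16, 23 and 19 in KO control mice 2 and 1, 19 in KO Pio mouse 15 and 16 in KO HFD-Pio mouse 20. The other 12 KO mice had 0 to 10. Cfd had 66, 50, 35, 32 and 25 counts in mice 10, 13, 2, 6 and 1, its 5 highest KO values, and all 5 belong to those 8 mice. KO control mouse 4 had no count of any of the 5 genes. Cfd stood at 2.36 counts for each Adipoq count over all KO mice, 3.10 without and 1.47 with Pio. In mouse 13 low hepatocyte markers and in mouse 10 acinar and muscle markers went with these counts; their part was not tested.

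**Figure D2:**
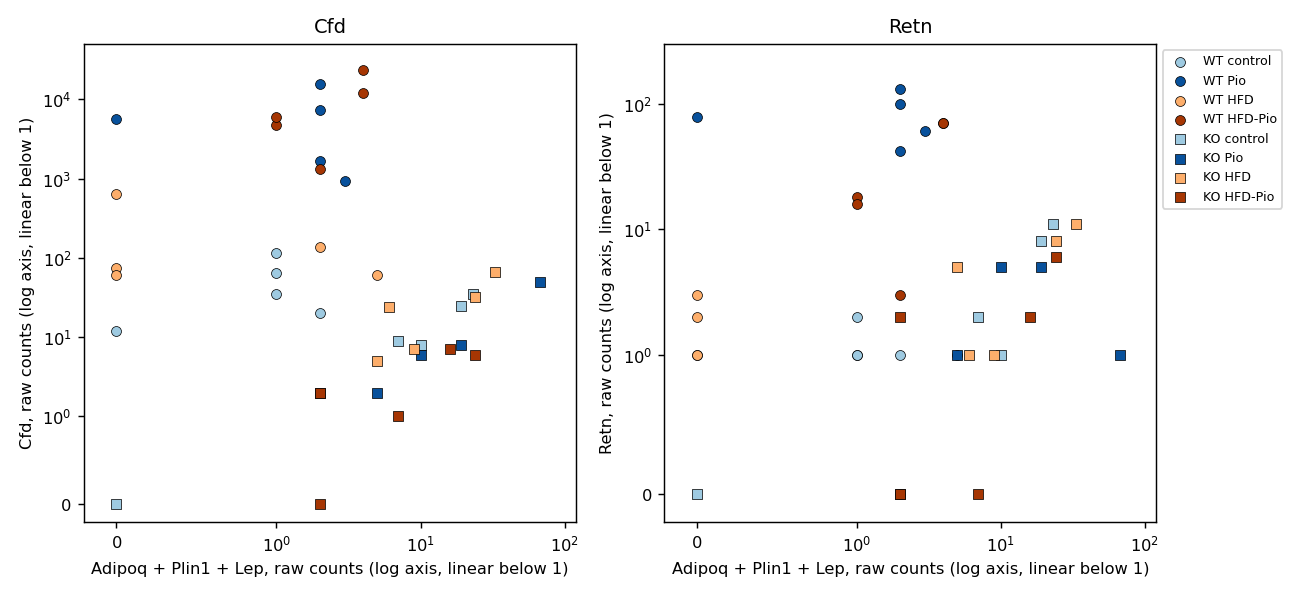
Raw counts of Cfd (left) and Retn (right) in each mouse against the summed raw counts of Adipoq, Plin1 and Lep in the same mouse (log axes, linear below 1; some points coincide). WT mice given Pio sit at the top left, with 926 to 23317 Cfd counts beside 0 to 4 counts of the other genes, while KO mice run along the bottom with 0 to 66 Cfd counts beside 0 to 67.

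The order of the 8 groups differed between the members. Mean Cfd was highest in WT HFD-Pio, then WT Pio, WT HFD, WT control, KO HFD, KO control, KO Pio and KO HFD-Pio. In that order the only neighbours without overlap were WT Pio and WT HFD, where the lowest WT Pio mouse had 40.5 CPM and the highest WT HFD mouse 37.8. Mean Retn was highest in WT Pio, then WT HFD-Pio, and these did not overlap; the other 6 groups followed between 0.214 and 0.0449 CPM and overlapped with their neighbours in the order. For Adipoq and Plin1 the 4 KO groups came first, at 0.150 to 0.300 CPM for Adipoq and 0.159 to 0.494 CPM for Plin1, and all neighbours overlapped. Lep was at most 0.0666 CPM in any group mean.

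Levels can be set between genes only per length. Per kilobase of exon, mean Cfd was 225 CPM in WT Pio and 307 CPM in WT HFD-Pio mice, which placed it 185th and 147th of the 12932 tested genes that had a length, against 8045th in WT control and 2707th in WT HFD mice. Retn per kilobase was 1.97 CPM in WT Pio mice, the 7876th level. Cfb, the substrate of factor D, had 6.08 ± 1.71 CPM per kilobase in WT Pio and 7.54 ± 2.66 in WT control mice, and C3, the central complement protein, had 1829 ± 357 and 2445 ± 234. Thus the Cfd level lay below that of Cfb in WT control mice and above it in WT Pio mice.

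The adipocyte markers that are not members were split. Of 12 symbols 11 were in the tables, and their sum was 56.0 to 164 CPM in WT control, 114 to 155 in WT Pio, 86.0 to 124 in WT HFD and 84.9 to 126 CPM in WT HFD-Pio mice. In the KO groups it was 40.2 to 78.5 CPM. Mrap, an accessory protein of melanocortin receptors, Adrb3, the beta-3 adrenergic receptor, Npr3, a natriuretic peptide receptor, and Tusc5 had counts in all 40 livers and made up most of the sum. Lgals12, a galectin of fat cells, had 1 count in 20 WT mice and 32 in 20 KO mice, Slc36a2 had 8 and 47, Acvr1c 15 and 67, and Arxes2 4 and 17. These 4 genes shared the direction of Adipoq, Plin1 and Lep between the tables, as did Npr3 with 781 and 1436 counts and Arxes1 with 3 and 4. Each WT library had 1 to 6 of the 11 markers at 0 and each KO library 1 to 5. The other 5 markers went the other way: Adig, an adipogenesis gene, with 156 counts in WT and 26 in KO mice, Mrap with 46974 and 19580, Adrb3 with 7933 and 6157, Tusc5 with 324 and 255 and Sncg with 107 and 89. Adig had 0.0340 ± 0.0341 CPM in WT control and 0.480 ± 0.170 CPM in WT Pio mice, and the keratin gene Krt79 had 0.0893 ± 0.0582 and 0.750 ± 0.271 CPM; both were picked after their values were seen and neither passed the filter. Markers of adipose stroma and mesothelium (7 genes) summed to 87.6 to 114 CPM in WT control and 124 to 154 CPM in WT Pio mice, and on HFD to 68.2 to 128 without and 98.0 to 119 CPM with Pio; their part in the member levels was not tested. Dpp4 made up most of that sum, with 89.0 ± 20.6 and 124 ± 10.7 CPM in WT control and WT Pio mice, where Pdgfra had 8.23 ± 7.77 and 5.11 ± 0.908 CPM. In the same 2 groups Upk3b had 2.14 ± 0.612 and 4.15 ± 2.83 CPM, Lrrn4 0.513 ± 0.195 and 1.11 ± 1.03, and Msln 0.898 ± 0.237 and 1.47 ± 1.14. Wt1 had 0.746 ± 0.562 and 0.818 ± 0.571 CPM, and Pi16 0.761 ± 0.530 and 0.385 ± 0.290.

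**Figure D3:**
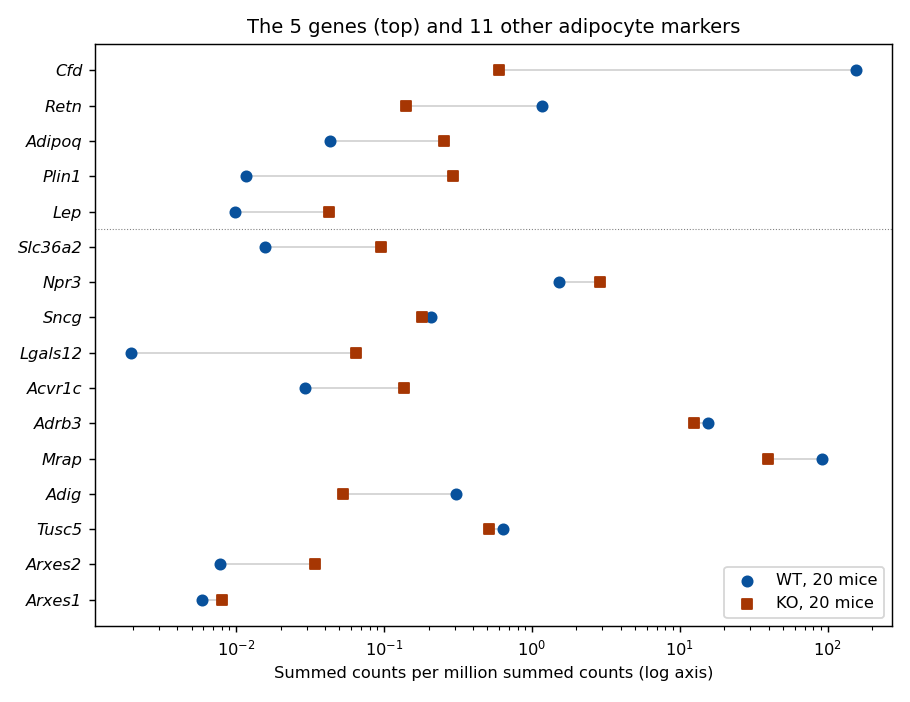
Summed counts as CPM of the summed libraries over 20 WT mice (circles) and 20 KO mice (squares) for the 5 genes (above the dotted line) and 11 other adipocyte markers, on a log axis. Cfd (156 against 0.597) and Retn (1.18 against 0.142) are higher in the WT table, as are Mrap, Adrb3, Tusc5, Sncg and Adig, whereas Adipoq, Plin1, Lep, Slc36a2, Lgals12, Acvr1c, Arxes1, Arxes2 and Npr3 are higher in the KO table.

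Genes of fat storage and of fat cells were counted from lists that hold no member. These lists, too, were chosen with earlier results of these data known. In WT mice on control diet 9 of 28 tested genes rose with Pio and 0 fell (12 and 3 by limma, the study's method), where 3.91% of all tested genes were called. The 28 genes had a median log2 fold change of 0.44 beside -0.02 over all tested genes. The gene with the largest change was Cidea, a lipid droplet protein of brown fat, which went from 0.584 ± 0.311 to 137 ± 84.2 CPM (7.89 on the log2 scale with a standard error of 0.60, and an adjusted p = 2.67e-11 by edgeR). Fabp4, the fatty acid carrier of fat cells, rose by 3.27, and Cidec, a lipid droplet protein, by 2.56 on the log2 scale. The other 6 called genes were Mogat1, Plin4, Cd36, Lpl, Cav1 and Gpd1, of which Lpl and Cav1 were lost in 13 and 4 of 40 fits that left out a mouse. Plin4, a perilipin of small droplets and a relative of Plin1, was called at 2.16, while Plin2 and Plin5 were not (0.17 and -0.45).

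On HFD, 5 of the 28 genes rose with Pio in WT mice and 0 fell, where 1.08% of all tested genes were called. The 28 genes had a median of 0.37 beside -0.02 over all tested genes. Cidea rose by 6.10 (standard error 0.56, edgeR adjusted p = 3.72e-09), Cidec by 3.00 and Mogat1, an acyltransferase of triglyceride synthesis, by 2.20, and Plin4 and Cd36 were called as well. For the change of the Pio effect with diet in WT mice, 0 of the 28 genes were called by edgeR and 7 had an unadjusted p under 0.05; DESeq2 called 0 and limma 3. Of all tested genes 0.0773% were called there. Of the other brown adipocyte markers in WT control and WT Pio mice, Cox7a1 was at 1.62 ± 0.830 and 1.64 ± 0.488 CPM, Cox8b at 0.0402 ± 0.0290 and 0.0795 ± 0.0590 CPM and Ppargc1a, also a liver gene, at 22.9 ± 6.96 and 36.3 ± 11.1 CPM. Ucp1, the defining uncoupling protein of brown fat, had no count in either group.

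In KO mice on control diet 4 of the 28 genes were called, all as higher with Pio, and 0 on HFD, where 0 had an unadjusted p under 0.05. DESeq2 called 5 and 0, and limma 3 and 0. By edgeR 9.01% of all tested genes were called on control diet and 0.0155% on HFD in these KO comparisons. Fabp5, a fatty acid carrier of many tissues, rose by 3.18 (standard error 0.71, edgeR adjusted p = 0.0115), the lipases Lipe and Pnpla2 by 0.84 and 0.78, and Nnat by 0.98. The 4 genes and the 9 called in WT mice shared 0 genes. The count was 1 without KO Pio mouse 13, whose hepatocyte markers were low, and 0 when the KO mice were fitted alone. Lipe, Pnpla2 and Nnat also lost their calls without any 1 of KO control mice 1 to 5. Nnat lost its call in 17 of the 40 fits that left out a mouse, and Fabp5 in 0.

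The Pio effect itself differed between genotypes for 8 of the 28 genes on control diet, with the KO effect below the WT effect for 7 of them. Mogat1 differed by -3.06 (standard error 0.79, adjusted p = 0.0174), Plin4 by -2.86 (0.40, adjusted p = 0.00015) and Fabp4 by -2.65 (0.81, adjusted p = 0.0397), all from edgeR's test of the interaction. The Fabp4 call was lost in 9 of the 40 fits that left out a mouse, that of Mogat1 in 1 and that of Plin4 in 0. Nnat differed by 1.49 in the other direction, a call lost without the filter and in 9 of the 40 fits that left out a mouse (WT control mouse 832, WT Pio mice 842 to 845, KO control mice 1, 4 and 5 and KO Pio mouse 13). On HFD the difference was called for 1 gene, Cidec, at -2.81 (adjusted p = 0.0162 from edgeR's test), and that call was lost without WT HFD mouse 826, 828 or 830, WT HFD-Pio mouse 837 or KO HFD-Pio mouse 19. Over all tested genes 7.87% were called for the difference on control diet and 0.0927% on HFD. Cidea differed by -7.30 (standard error 2.84), which was not called (adjusted p = 0.0947 from edgeR's test), with 0 to 2 Cidea counts in each KO mouse.

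**Figure D4:**
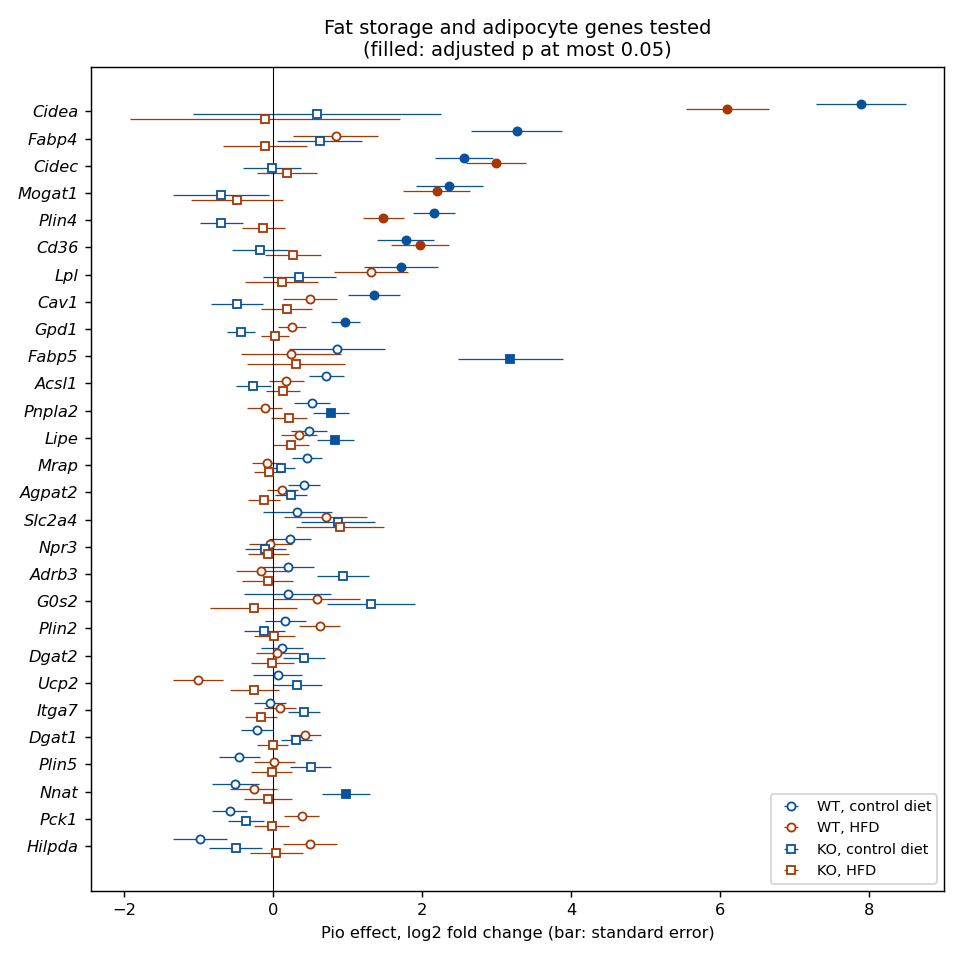
Log2 fold change with Pio (bars: standard error) of the 28 tested fat storage and adipocyte genes in WT (circles) and KO mice (squares) on control diet (blue) and HFD (brown). Filled symbols passed an adjusted p of 0.05 by edgeR; in WT mice 9 and 5 are filled, led by Cidea at 7.89 and 6.10, and in KO mice 4 and 0.

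Fabp5 and Slc2a4 fell with HFD in WT mice. Without Pio, 5 of 28 were called in WT mice: Plin4 rose by 1.10, Acsl1, an acyl-CoA synthetase, by 1.08 and Gpd1, a glycerol phosphate enzyme, by 0.80, whereas Fabp5 fell by 3.20 and the glucose transporter gene Slc2a4 by 2.69. Plin4, Gpd1 and Acsl1 lost their calls in 9, 4 and 1 of the 40 fits that left out a mouse. All 3 rises lost their call without WT control mouse 832, and 1 rise was called without the filter or without WT control mouse 833, WT HFD mouse 828 or WT HFD mouse 829. The Fabp5 call was also lost without mouse 833, 828 or 829. With Pio, 2 of 28 were called in WT mice, Fabp5 at -3.82 and Slc2a4 at -2.31, and in KO mice the same 2 were called at -2.41 and -1.75. Without Pio 0 of 28 were called in KO mice, 1 having an unadjusted p under 0.05; DESeq2 and limma also called 0. The 2 KO calls were 0 when the KO mice were fitted alone or KO Pio mouse 13 was left out. Both were also lost without any 1 of KO HFD-Pio mice 16 to 20, and Slc2a4 in 10 of the 40 fits that left out a mouse. Of all tested genes, 1.31% were called for HFD without and 1.22% with Pio in WT mice, and 0.185% and 4.96% in KO mice.

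Among 13 tested genes of other secreted adipokines, on control diet 1 rose and 2 fell with Pio in WT mice. Nampt, a NAD-synthesis enzyme also secreted by fat, rose by 0.60, the hormone gene Fgf21 fell by 3.01 and the chemokine gene Ccl2 fell by 2.76. The Nampt call was lost in 5 of the 40 fits that left out a mouse, that of Ccl2 in 1 and that of Fgf21 in 0. For this comparison DESeq2 called 4 of the 13 genes and limma 7. On HFD 0 of the 13 were called by edgeR in WT mice, with 1 at an unadjusted p under 0.05, and DESeq2 and limma called 1 each. In KO mice on control diet Rarres2, which encodes chemerin, fell by 0.65 and Igf1 by 0.57, and these calls were lost in 6 and 13 of the 40 fits that left out a mouse, KO Pio mouse 13 among them. With HFD, Angptl4, a lipoprotein lipase inhibitor, was higher by 0.94 in WT HFD-Pio than in WT Pio mice. Rarres2 was higher by 0.67 in KO HFD-Pio than in KO Pio mice. These 2 calls were lost in 4 and 18 of the 40 fits that left out a mouse, for Rarres2 with KO Pio mouse 13 among them. Of the genotype differences of the Pio effect on control diet, 5 of 13 were called, Fgf21 at 2.66 and Metrnl at 1.41, and Rarres2, Nampt and Igf1 at -1.21, -0.91 and -0.91. The Metrnl call was lost in 27 of the 40 fits that left out a mouse, KO Pio mouse 13 among them. Fgf21 and Igf1 lost theirs in 3 fits each, and Rarres2 and Nampt in 0.

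The list of receptors held Lepr, Adipor1, Adipor2, Cdh13, Cap1 and Tlr4. It also held C3ar1 and C5ar1, receptors of complement peptides and not of a member's product. Of these 8 tested genes edgeR called 0 in each of the 4 Pio comparisons. In WT mice on control diet and HFD and then KO mice, 2, 1, 1 and 0 had an unadjusted p under 0.05 in these comparisons. DESeq2 called 0 in each of these, and limma 1, 0, 1 and 0. Per kilobase the adiponectin receptor Adipor2 had 84.4 ± 21.5 CPM in WT control and 118 ± 15.6 CPM in WT Pio mice (log2 fold change 0.48, adjusted p = 0.245 from edgeR's test), and Adipor1 had 22.9 ± 2.06 and 24.0 ± 3.70 CPM. Cdh13, T-cadherin, which binds adiponectin, was low, at 0.410 ± 0.109 and 0.494 ± 0.258 CPM per kilobase. Cap1, a reported resistin receptor, was at 33.9 ± 4.91 and 34.1 ± 5.03 CPM per kilobase. The leptin receptor gene Lepr fell with HFD, by 2.39 in WT mice without Pio (standard error 0.44, edgeR adjusted p = 0.00237) and by 2.14 in KO mice given Pio. Of the 40 fits that left out a mouse, 0 lost the WT call. The KO call was lost in 4, those without KO HFD-Pio mouse 16, 17, 19 or 20.

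Of 13 tested genes of the alternative complement pathway other than Cfd, 0 were called in any of the 4 Pio comparisons by edgeR, with 2, 0, 4 and 0 at an unadjusted p under 0.05, in the same order. DESeq2 called 0, 0, 1 and 0 and limma 3, 0, 2 and 0. Of the genotype and diet differences, only the genotype difference of Cd59a, an inhibitor of the membrane attack complex, was called on control diet (-1.07, edgeR adjusted p = 0.0433), and this call was lost in 10 of 40 fits that left out a mouse. Of 15 tested regulators of fat cell formation 0 were called in WT mice on either diet, with 4 and 1 at an unadjusted p under 0.05, while DESeq2 called 0 and 0 and limma 2 and 1. Pparg itself had 12.4 ± 1.24 CPM in WT Pio mice, 0.53 above WT control mice on the log2 scale (standard error 0.23, edgeR adjusted p = 0.199), and its Pio effect was smaller in KO mice by 1.21 (edgeR adjusted p = 0.0219). In KO mice on control diet Cebpa was called at 1.62 and Ppargc1b at 1.60, and neither call held without mouse 13, where Cebpa was at -0.05. The Cebpa call was also lost without any 1 of KO control mice 1 to 4. Cebpb had a genotype difference of 2.04, which ran from 1.01 to 2.28 when 1 mouse was left out and lost its call in 0 of the 40 fits. The median and the highest KO Pio mouse were 72.1 and 456 CPM. Srebf1 differed by -1.54 between KO HFD-Pio and KO Pio mice, again a call lost without mouse 13, and also without any 1 of KO HFD-Pio mice 16 to 20.

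Of 14 protein-coding genes within 20 kb of a member 11 were tested. In WT mice 2 were called with Pio on control diet and 1 on HFD. Fcor, 11078 bases from Retn and singled out after its values were seen, encodes a corepressor of Foxo1 and rose from 0.550 ± 0.402 to 2.92 ± 0.236 CPM on control diet (a rise of 2.40 on the log2 scale with a standard error of 0.44, edgeR adjusted p = 0.000966) and by 2.22 on HFD. Pex11a, a peroxisome gene 3054 bases from Plin1, rose by 0.83 on control diet (adjusted p = 0.00207 from edgeR's test) while Plin1 stayed at 0 to 2 counts. Next to Cfd, Elane, Prtn3 and Med16 were not called with Pio in WT mice. Elane and Prtn3, protease genes of neutrophils, were called with HFD in KO mice without Pio, where mouse 9 had high neutrophil markers, and Elane was called as lower with Pio on HFD in KO mice, against the group that holds mouse 9. With Pio on control diet in KO mice Plppr3 was called at 1.13 and Stxbp2 at 0.33. In the KO Pio group the median and the highest mouse were 3.00 and 13.5 CPM for Plppr3, and 39.0 and 58.1 CPM for Stxbp2.

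The genes most like Cfd and Retn were ranked by Pearson's r between the 8 group means of log2 CPM, over all tested genes other than the members. For Cfd they included Mogat1 (r = 0.983), Akap5 (0.983), Gm15411 (0.980) and Osbpl3 (0.976). For Retn they were Themis (0.969), Tnfrsf23 (0.964), Gnai1 (0.961), Glt1d1 (0.960) and Fabp4 (0.959). Between Cfd and Retn r was 0.851. The 8 points share libraries and scaling, and r takes no account of size: Osbpl3, an oxysterol-binding protein relative, ran from 1.32 to 22.6 CPM in group means, while Akap5 ran from 1.90 to 3.49 CPM. Gnai1, a G protein subunit, went from 1.86 ± 1.09 to 10.4 ± 2.64 CPM between WT control and WT Pio mice and was 0.963 to 1.45 CPM in the KO groups.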

How the data were processed

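Liver RNA of 40 mice was sequenced after poly-A selection. The deposited values are raw counts per gene that the authors made in 1 table per genotype (STAR 2.0.4b, featureCounts 1.4.5 and GRCm38, from the submitters' processing notes). The strand setting is not given in the sources used here. The labels gave each mouse its group. Tables were joined on 40594 shared Ensembl identifiers, repeated lines being identical, 96 genes of the WT table only (0.00688% of its counts) were left out, and 355 rRNA genes were removed. The 12942 genes reaching 1 CPM in 5 or more mice entered edgeR 4.0.16 (R 4.3.3): TMM scaling, 1 model with 8 group means, robust quasi-likelihood F test, Benjamini-Hochberg adjustment, with a call threshold of 0.05, and the fit was tested on simulated data. Alternatives were DESeq2 1.42.0, limma 3.58.1 with sample weights (the study's method), no filter, 1 genotype alone and leaving out each mouse. Members got no test. The members and lists were chosen with earlier results of these data known. Genes were named by a rule: the members, up to 3 called genes per list, comparison and direction with the largest change, the 5 most like Cfd and Retn, the product receptors and Pparg. One gene that this rule names is not reported here. Exon lengths came from GENCODE M21. Promoter sequences came from RefSeq, and 5 of 5 members matched by symbol. Intervals and the floor of 3 counts cover counting error only.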

Additional observations from a re-analysis of the deposited data

Results flagged for a closer look

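In 2 groups of 5 a single mouse stood far from the others in Cfd: WT HFD mouse 827 with 37.8 CPM (the next mouse had 6.28) and KO Pio mouse 13 with 1.86 CPM (next 0.304). KO Pio mouse 13 also stood apart in Plin1, with 2.16 CPM against 0.152 CPM in the next mouse. Among the genes near zero a single mouse with 1 to 3 counts was enough to stand apart. This held for Plin1 in WT control mouse 833 (0.0604 CPM), WT Pio mouse 845 (0.111), WT HFD mouse 829 (0.0506) and WT HFD-Pio mouse 836 (0.0312), and for Lep in WT Pio mouse 841 (0.0258), WT HFD mouse 829 (0.152), WT HFD-Pio mouse 836 (0.0312) and KO Pio mouse 15 (0.0380 CPM). The rule was Dixon's Q, applied to 39 sets of a member in a group. Chance gives about 1 flag in 20 sets for normally distributed values. That rate does not apply to these 8 Plin1 and Lep sets, where most mice had 0.

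The Pio effect on control diet differed between KO and WT mice, by edgeR's test of the interaction with Benjamini-Hochberg adjustment, for 16 genes of the lists (values are KO minus WT on the log2 scale). The KO effect was below the WT effect for Mogat1 (-3.06), Plin4 (-2.86), Fabp4 (-2.65), Cidec (-2.57), Cd36 (-1.96), Cav1 (-1.84), Gpd1 (-1.40), Rarres2 (-1.21), Pparg (-1.21), Cd59a (-1.07), Nampt (-0.91) and Igf1 (-0.91). It was above the WT effect for Fgf21 (2.66), Cebpb (2.04), Nnat (1.49) and Metrnl (1.41). Of the 40 fits that left out a mouse, 27 lost the call of Metrnl, 10 that of Cd59a, and 9 each those of Fabp4 and Nnat. Fgf21 and Igf1 lost theirs in 3 each, Cd36 in 2, Mogat1 in 1 and the remaining genes in 0. On HFD the difference was called for Cidec (-2.81).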

How the results depend on the processing

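The log2 ratios of group means of the members moved by less than the spread between mice under CPM from library totals, DESeq2 size factors and no filter. Leaving out 1 mouse gave 6.52 to 7.43 for Cfd and 5.90 to 6.24 for Retn with Pio on control diet in WT mice. It moved 5 ratios: Cfd with Pio on HFD in WT mice (4.40 to 5.97), Cfd with HFD in WT mice (1.39 to 3.22), Cfd with HFD and Pio in KO mice (-2.65 to -0.56), and Plin1 in KO mice with Pio on control diet (-1.19 to 1.97) and with HFD and Pio (-2.02 to 1.04). The text counts calls among 28 fat storage and adipocyte genes, and for these DESeq2 gave 4 for HFD with Pio in WT mice and 3 for the genotype difference on HFD. Limma gave 15 (12 higher, 3 lower) for Pio on control diet in WT mice, 12 and 1 for HFD with Pio in WT and KO mice, 14 and 4 for the genotype differences on control diet and HFD, and 3 for the diet difference. Without the filter, 3 were called for HFD in WT and 0 for HFD with Pio in KO mice. With 1 genotype alone, 0 were called for Pio on control diet and for HFD with Pio in KO mice. Without KO Pio mouse 13 and KO HFD mice 9 and 10, chosen after the data were seen, 8 were called for Pio on HFD and 7 for HFD with Pio in WT mice, 1 for Pio on control diet and 1 for HFD with Pio in KO mice, 0 for the genotype difference on HFD and 2 for the diet difference. Leaving out 1 mouse gave 7 to 13 (Pio, control diet) and 5 to 8 (Pio, HFD) in WT mice, 1 to 6 and 0 to 0 in KO mice, 2 to 5 and 1 to 6 for HFD without and with Pio in WT mice, 0 to 0 and 0 to 4 in KO mice, 5 to 10 and 0 to 1 for the genotype differences and 0 to 3 for the diet difference. Cebpa with Pio in KO mice on control diet ran from -0.048 (without KO Pio mouse 13) to 1.93, and was -0.048 also without all 3 mice. The cause was not tested. No paired analysis was possible because the mouse numbers are unique. With 0 to 4 counts of Adipoq, Plin1 or Lep in each WT mouse, counting error limits what can be said of differences between WT groups.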
